A study of Zea mays with 6 samples.

Results

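Methionine is regenerated in plant cells by a pair of linked circuits, and 8 maize genes that the study placed with these circuits were followed here across iron-deficient and iron-sufficient roots. They are the methionine cycle and salvage genes that the study tabulated by name, and all array probes whose transcript identifier belongs to one of the 8 gene identifiers were taken. The 8 genes, of 39219 on the array, were measured by 23 transcripts of 59756 and by 49 probes of 139000. In the order of the pathway they are CYS1 (GRMZM2G113873), HMT2 (GRMZM2G152470), SAMS3 (GRMZM2G054123), MTN (GRMZM2G171111), APT1 (GRMZM2G131907), MTK (GRMZM2G464137), RPI2 (GRMZM5G891282) and ARD (GRMZM2G165998). The study chose them on these same arrays as genes higher in Fe-deficient roots, so a positive difference is no independent evidence, and the negative differences below run opposite to the direction of that choice.

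Fe-deficient roots came from 19 d old maize plants of PR33T56 (a hybrid by the labels, an inbred line by the study's methods) that had received 0 µM Fe-EDTA in the last 7 d, on 3 arrays. Fe-sufficient roots came from plants of the same age and line given 100 µM Fe-EDTA for those 7 d, also on 3 arrays. Both groups had been raised in a solution without iron up to an age of 12 d, so the Fe-sufficient plants were resupplied plants and not plants that had always had iron. Every sample pooled the whole roots of 6 plants, and the replicates came from separate cultivations. In such bulk RNA, fewer cells of a type and less RNA per cell cannot be told apart.

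Methionine is made from cysteine by way of cystathionine and homocysteine, and is then joined to ATP to give S-adenosylmethionine, the general methyl donor of the cell. Grasses take several molecules of S-adenosylmethionine to build nicotianamine and from it deoxymugineic acid, a phytosiderophore that roots release to bind ferric iron. The nicotianamine step leaves methylthioadenosine, as does ethylene synthesis, and the salvage circuit (the Yang cycle) turns it back into methionine while returning the adenine to the nucleotide pool. In rice and barley, genes of this circuit are known as iron-deficiency responders.

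The arrays themselves bear on every value below. A probe counted as above background where it exceeded the 95th percentile of the 1663 control probes of random sequence on that array, which 58.37% to 66.52% of probes did. Array Fe-deficient 2 stood somewhat apart from the others, with correlations over all transcripts of 0.9471 to 0.9754. The phytosiderophore exporter gene TOM1 (GRMZM2G063306) had log2 levels of 12.61, 11.14 and 12.59 on the Fe-deficient arrays, against 8.49, 13.51 and 12.52 on the Fe-sufficient arrays. It was thus lowest on Fe-sufficient 1 and next lowest on Fe-deficient 2, a 32.4-fold range over the arrays, and on the other two Fe-sufficient arrays it was about as high as on Fe-deficient 1 and 3 or higher. TOM1 therefore did not follow the labels, and whether arrays or labels were exchanged was not tested. Every difference below takes the labels as deposited. For some transcripts the difference is also given without Fe-sufficient 1 or Fe-deficient 2, and those given only for all arrays may shift too. Of the root genes of the marker list, only rth3 and rtcs could be matched by symbol, and both were above background on all arrays. Of 11 photosynthetic leaf genes, 6 were above background on all arrays and 2 on none. Their summed log2 levels were 14.87 to 15.20 in Fe-deficient and 14.46 to 14.91 in Fe-sufficient roots. Ppdk1 was the brightest of them on every array, at 14.95, 14.80 and 14.52 in Fe-deficient against 14.47, 13.96 and 14.09 in Fe-sufficient roots. The leaf gene cab-m9 read 13.31 on Fe-sufficient 3 and between 10.43 and 11.24 on the other arrays. Of 5 seed storage genes, 3 were above background on all arrays. The part of the leaf and seed genes in the results was not tested. Group and position on the slide cannot be told apart, since the Fe-deficient arrays occupied positions 10, 11 and 12 and the Fe-sufficient arrays positions 7, 8 and 9 of 1 slide.

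The comparison asks whether the genes that regenerate methionine differed with iron supply. No member transcript passed the test. A transcript was called at a limma p of at most 0.05 after Benjamini-Hochberg adjustment over all transcripts and a fold change of at least 1.5, and 0 of the 23 member transcripts were called, against 51 transcripts or 0.0853% of the whole array. The lowest adjusted p of a member in limma was 0.445. At an unadjusted limma p of at most 0.05 stood 3 member transcripts, 1 each of HMT2, CYS1 and SAMS3, or 13%, beside 10.3% of all transcripts. The median log2 difference (Fe-deficient minus Fe-sufficient) was -0.07 over the brightest transcripts of the 8 genes and -0.04 over the 23 transcripts, beside 0.02 over all transcripts. Of the 8 brightest transcripts 4 lay below 0 and 4 above, and of the 23 transcripts 12 lay below and 11 above, with 47.9% of all transcripts below 0. The smallest p that an exact two-sided permutation of 3 against 3 arrays allows is 0.1, so no single member could have passed such a test.

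**Figure D1:**
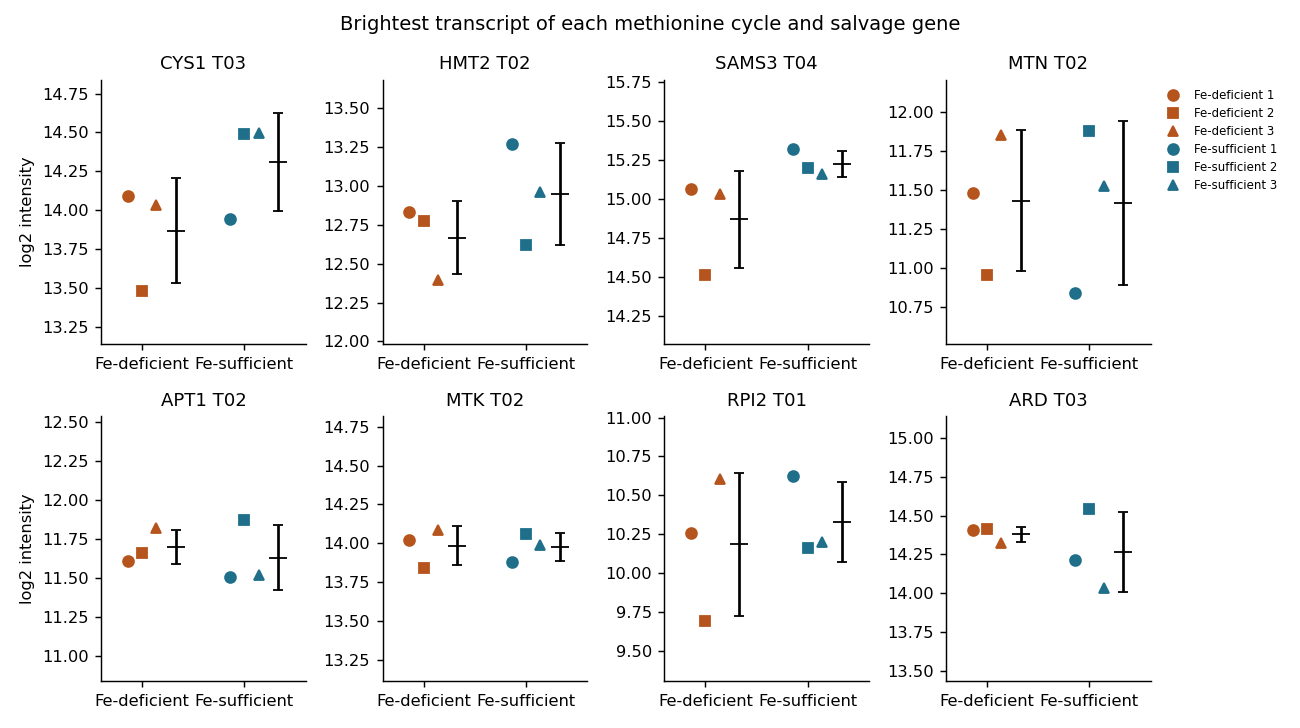
Log2 intensity (y axis; panels share a span but not a position) of the brightest transcript of each gene on the 3 Fe-deficient arrays (orange) and the 3 Fe-sufficient arrays (blue), with group mean and SD in black. Among these 8 panels the groups are separate only for SAMS3, where Fe-deficient 2 lies at 14.51 and the Fe-sufficient arrays lie between 15.16 and 15.32.

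Although nothing was called, the members whose groups did not overlap all lay on the lower side. The groups did not overlap, with Fe-deficient lower, for 6 of the 23 member transcripts, or 26.1%, beside 7.65% of all transcripts. They did not overlap with Fe-deficient higher for 0 members, beside 9.75% of all transcripts. The 6 were the 4 transcripts of SAMS3, 1 of CYS1 and 1 of HMT2. The HMT2 transcript was T03, whose only probe with separate groups was not above background on any array, while the brighter HMT2 transcripts overlapped. Since transcripts of 1 gene share RNA and partly sequence, these are 3 genes and not 6 separate observations. No transcript of the other 5 genes, MTN, APT1, MTK, RPI2 and ARD, separated the groups.

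CYS1, the first member, encodes cystathionine gamma-synthase, which commits the carbon skeleton to methionine. Its brightest transcript, T03, had log2 levels of 14.09, 13.48 and 14.03 in Fe-deficient roots, against 13.94, 14.49 and 14.49 in Fe-sufficient roots. Fe-deficient 2 was the lowest array and Fe-sufficient 1 the next, so the groups overlapped. The means were 13.87 ± 0.34 and 14.31 ± 0.32 (SD, n = 3 each), a log2 difference of -0.44 with a 95% interval of -1.0 to 0.12 (limma adjusted p = 0.535). T01 had 12.28, 11.52 and 12.19 in Fe-deficient roots, against 12.40, 12.41 and 12.57 in Fe-sufficient roots, and was the CYS1 transcript whose groups did not overlap. T02 had 11.63, 11.36 and 11.96 in Fe-deficient roots, against 11.94, 12.27 and 12.19 in Fe-sufficient roots, with an overlap of 0.02 between Fe-deficient 3 and Fe-sufficient 1. The log2 differences of T01 and T02, -0.46 and -0.49, were close to that of T03, and all 8 CYS1 probes had a difference below 0. The difference of T03 was -0.25 without Fe-deficient 2 and -0.62 without Fe-sufficient 1. That of T01 was -0.22 without Fe-deficient 2 and -0.49 without Fe-sufficient 1.

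HMT2 encodes a homocysteine methyltransferase, which passes a methyl group to homocysteine to form methionine. RefSeq names the same identifier HMT-3. Its transcripts differed between the groups in different directions, and that contrast was not tested. The brightest, T02, had log2 levels of 12.84, 12.77 and 12.40 in Fe-deficient roots, against 13.27, 12.62 and 12.96 in Fe-sufficient roots. T01 lay the other way, at 11.96, 11.97 and 12.42 in Fe-deficient roots, against 12.27, 11.58 and 11.70 in Fe-sufficient roots. In both transcripts the groups overlapped through Fe-sufficient 1 or 2, and the log2 differences were -0.28 for T02 (95% interval -0.78 to 0.23; limma adjusted p = 0.64) and 0.27 for T01 (-0.29 to 0.82; limma adjusted p = 0.679). Without Fe-sufficient 1 the difference of T02 was -0.12 and that of T01 was 0.48. The probes of a transcript did not agree well. For T02 the probe listed at position 957 had a difference of -0.60 and the probe at position 1203 had 0.04. For T01 the probes at positions 1180 and 1433 had 0.10 and 0.43. T03 was dim, above background on 2 of 3 arrays in each group, at 7.40, 7.65 and 7.30 in Fe-deficient roots against 7.94, 7.97 and 7.86 in Fe-sufficient roots. Its limma p was the lowest of all members (adjusted p = 0.445), but the groups separated only in the probe listed at position 970, which was not above background on any of the 6 arrays. The probe at position 966, above background on 2 of 3 arrays in each group, had a difference of -0.12 and overlapping groups, and no fold is given.

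SAMS3 encodes S-adenosylmethionine synthetase, the enzyme that joins methionine to ATP. It had the largest difference of the 8 genes, in T02, and was lower in Fe-deficient roots in all 4 of its transcripts without overlap. The brightest, T04, had log2 levels of 15.06, 14.51 and 15.03 in Fe-deficient roots, against 15.32, 15.20 and 15.16 in Fe-sufficient roots. The gap between the groups was 0.10, between Fe-deficient 1 and Fe-sufficient 3, while Fe-deficient 2 lay 0.52 below the next array. The means were 14.87 ± 0.31 and 15.23 ± 0.08 (SD, n = 3 each), a difference of -0.36 (95% interval -0.80 to 0.08), or 1.28-fold lower, and it was not called (limma adjusted p = 0.528). Without Fe-deficient 2 the difference was -0.18.

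Fe-deficient 2 was the lowest array in the other SAMS3 transcripts too. T02 had the widest spread, at 12.14, 10.27 and 12.28 in Fe-deficient roots against 12.76, 12.86 and 12.81 in Fe-sufficient roots. Its 3 Fe-sufficient arrays lay within 0.10 of each other, and Fe-deficient 2 alone lay 1.87 below the next array. The log2 difference of T02 was -1.25 (95% interval -2.44 to -0.05), or 2.38-fold lower, with a limma p of 0.0428 and an adjusted p of 0.477. Without Fe-deficient 2 the fold was 1.52, with a limma p of 0.00613 and an adjusted p of 0.572. T01 had 13.33, 12.45 and 13.33 in Fe-deficient roots, against 14.09, 13.55 and 13.38 in Fe-sufficient roots. T03 had 11.08, 10.44 and 11.19 in Fe-deficient roots, against 12.20, 11.33 and 11.26 in Fe-sufficient roots. For both, Fe-sufficient 1 stood above the rest and the other Fe-sufficient arrays lay within 0.23 and 0.25 of Fe-deficient 1 and 3. Their differences of -0.64 and -0.69, or 1.56-fold and 1.61-fold lower, were not called (limma adjusted p = 0.502 and 0.495), and they were 1.27-fold and 1.38-fold lower without Fe-deficient 2 and 1.35-fold and 1.31-fold lower without Fe-sufficient 1.

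The SAMS3 probes did not all share one pattern over the arrays. All 9 probes had a difference below 0, and for 7 of them the groups did not overlap. The 3 probes listed at positions 1702, 1709 and 1727 of T03 and T01 were the ones in which Fe-sufficient 1 stood out, at 12.19, 12.21 and 12.94, with the other Fe-sufficient arrays between 11.20 and 11.91. The 3 probes of T02, listed at positions 356, 379 and 498, had Fe-sufficient arrays between 12.17 and 12.97 and Fe-deficient 2 between 9.89 and 10.31. The other 3 probes, at positions 397 of T01 and 281 and 1495 of T04, had the smallest differences, of -0.44, -0.31 and -0.41. The files give no probe sequences, so whether these patterns mark separate messages or a related gene that hybridised to some probes cannot be told from them.

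**Figure D2:**
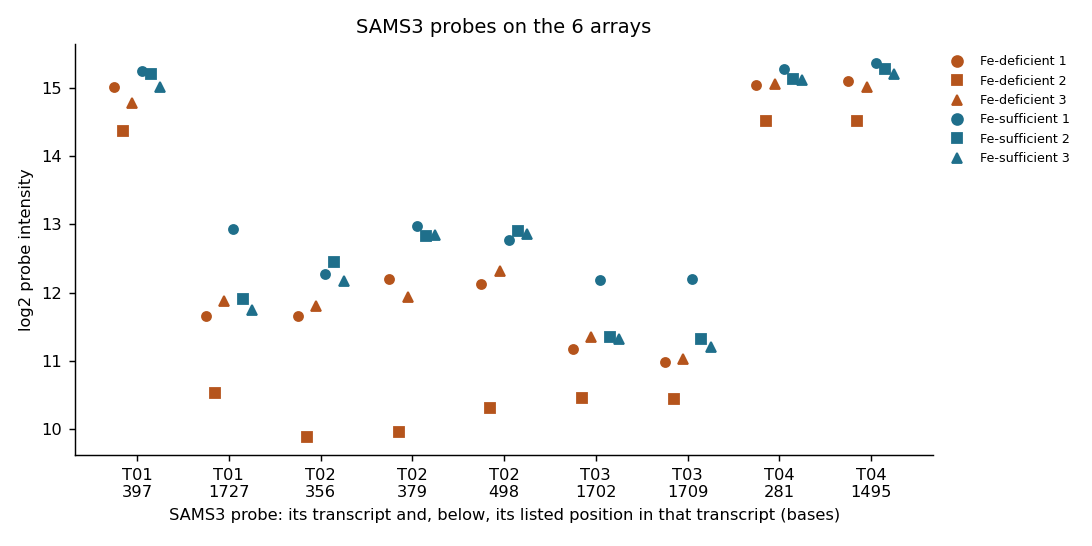
Log2 intensity (y axis) of the 9 SAMS3 probes on each array (x axis: transcript and listed position of the probe), Fe-deficient arrays in orange and Fe-sufficient arrays in blue. Fe-deficient 2 is the lowest point of every probe, and the 3 probes at positions 1702, 1709 and 1727 have Fe-sufficient 1 above all others.

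The salvage circuit begins with MTN, methylthioadenosine nucleosidase, which splits methylthioadenosine into adenine and methylthioribose. Its brightest transcript, T02, had log2 levels of 11.48, 10.96 and 11.86 in Fe-deficient roots, against 10.84, 11.88 and 11.52 in Fe-sufficient roots. Low arrays were found in both groups, Fe-deficient 2 and Fe-sufficient 1. The group means, 11.43 ± 0.45 and 11.41 ± 0.53 (SD, n = 3 each), differed by 0.02 (95% interval -0.76 to 0.79; limma adjusted p = 0.988). T04 had nearly the same levels, at 11.53, 10.90 and 11.77 in Fe-deficient roots against 10.76, 11.83 and 11.45 in Fe-sufficient roots. In the dimmer T03 the 3 lowest arrays were the same, at 8.19, 7.31 and 8.83 in Fe-deficient roots against 7.22, 8.52 and 8.71 in Fe-sufficient roots. One of its probes was not above background on 4 of the 6 arrays, Fe-sufficient 1 and Fe-deficient 2 among them, so its low levels are near background. T01 was not above background on any array, so no fold is given for it. Without Fe-sufficient 1 the difference of T02 was -0.27 (limma adjusted p = 0.661), and without Fe-deficient 3 it was -0.20. Without Fe-deficient 2 it was 0.26, so the sign of this gene depended on which arrays were kept.

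APT1, adenine phosphoribosyltransferase, returns the freed adenine to AMP. Its brightest transcript, T02, had log2 levels of 11.61, 11.66 and 11.82 in Fe-deficient roots, against 11.51, 11.87 and 11.52 in Fe-sufficient roots. All 6 arrays lay within a 1.29-fold range, and the difference was 0.07 (95% interval -0.31 to 0.44; limma adjusted p = 0.896). T01 had 11.77, 11.65 and 11.82 in Fe-deficient roots, against 11.42, 12.01 and 11.02 in Fe-sufficient roots. Its difference of 0.26 (limma adjusted p = 0.702) came largely from 1 probe on 1 array: the probe listed at position 833 read 12.93 on Fe-sufficient 3 and between 13.65 and 14.03 on the others. The probe at position 740 of T02 read 13.97 on that array.

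MTK, methylthioribose kinase, phosphorylates methylthioribose for the next step. It was the steadiest member: its brightest transcript, T02, had log2 levels of 14.02, 13.84 and 14.09 in Fe-deficient roots, against 13.88, 14.06 and 13.99 in Fe-sufficient roots. The range over arrays was 1.18-fold, and the difference of 0.01 had a 95% interval of -0.32 to 0.33 (limma adjusted p = 0.991), which takes in differences of up to 1.26-fold higher in Fe-deficient roots. T01 spanned a 1.55-fold range over the arrays and had a difference of 0.04 (limma adjusted p = 0.956). T03 had 8.62, 8.72 and 9.02 in Fe-deficient roots, against 7.81, 9.09 and 9.02 in Fe-sufficient roots. Its difference of 0.15 turned to -0.27 without Fe-sufficient 1. The groups overlapped in all 3 transcripts, and Fe-sufficient 1 was the lowest array for T01 and T03.

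RPI2 encodes a ribose-5-phosphate isomerase, an enzyme of the pentose phosphate pathway that the study placed in this group. Its only transcript had log2 levels of 10.26, 9.69 and 10.60 in Fe-deficient roots, against 10.62, 10.16 and 10.20 in Fe-sufficient roots. The highest and the second highest array were Fe-sufficient 1 and Fe-deficient 3. The difference of -0.14 (95% interval -0.76 to 0.47; limma adjusted p = 0.854) turned to 0.10 without Fe-deficient 2 and was 0.002 without Fe-sufficient 1. The isomerase of the salvage circuit itself, which acts on methylthioribose phosphate, carries the RefSeq name IDI2 (GRMZM2G139533) and is no member. Its brightest transcript had log2 levels of 12.77, 12.63 and 12.82 in Fe-deficient roots, against 12.38, 13.13 and 13.18 in Fe-sufficient roots, and was not called (difference -0.16; limma adjusted p = 0.818).

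ARD, acireductone dioxygenase, is an iron-requiring enzyme that forms the keto acid from which methionine is regained by transamination, with formate as the other product. Its brightest transcript, T03, had log2 levels of 14.40, 14.41 and 14.32 in Fe-deficient roots, against 14.22, 14.54 and 14.03 in Fe-sufficient roots. The Fe-deficient arrays lay within 0.09 of each other and inside the range of the Fe-sufficient arrays, and the difference was 0.12 (95% interval -0.28 to 0.51; limma adjusted p = 0.811). As in APT1, 1 probe read low on Fe-sufficient 3, at 13.41 against 14.08 to 14.61 on the other arrays, and the second probe of the transcript had a difference of -0.19. T02 had 8.75, 9.41 and 9.13 in Fe-deficient roots, against 7.45, 8.99 and 9.20 in Fe-sufficient roots. Its difference of 0.55 was the highest of all members, was not called (95% interval -0.53 to 1.63; limma adjusted p = 0.661), and was 0.01 without Fe-sufficient 1, the array where neither of its probes was above background. T01 was above background on 1 Fe-deficient array and on 0 Fe-sufficient arrays, with 6.65, 7.05 and 7.23 against 6.20, 6.71 and 6.70, and no fold is given. The identifier GRMZM2G165998 matches 2 RefSeq genes, so the 3 transcripts may belong to different loci.

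**Figure D3:**
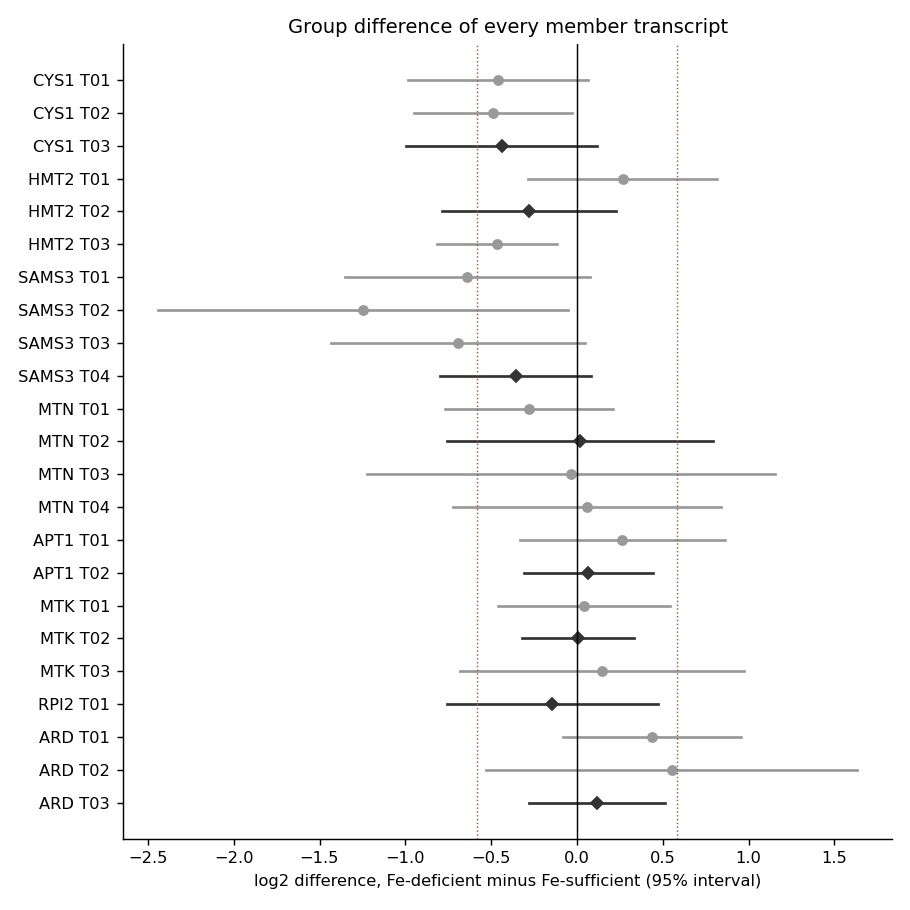
Log2 difference, Fe-deficient minus Fe-sufficient (x axis), with its 95% interval from limma for each of the 23 member transcripts, in pathway order from top to bottom. Diamonds mark the brightest transcript of a gene, dotted lines mark a fold of 1.5, and the 3 points beyond a dotted line are SAMS3 T01, T02 and T03.

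Probes gave a finer view of the same data. Of the 49 member probes, 28 had a difference below 0 and 21 above. The groups did not overlap for 13 probes, all of them lower in Fe-deficient roots: 7 of SAMS3, 5 of CYS1 and 1 of HMT2. Over all probes of the array, 16.9% had groups that did not overlap in either direction. The median gap between the lowest and the highest probe difference of a transcript was 0.31 for members, and the same for all transcripts.

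Across the 6 arrays, members fell into different orders. Among the 19 member transcripts above background on all arrays, Fe-deficient 2 was the lowest array for 9, beside 23.8% of all such transcripts. Fe-sufficient 1 was the lowest for 6, beside 16.5%, and Fe-sufficient 2 the highest for 9, beside 15.5%. The 9 transcripts lowest on Fe-deficient 2 included every transcript of CYS1 and SAMS3. Since transcripts of 1 gene share RNA, these counts are not of separate observations. Fe-deficient 2 was lowest for the brightest transcripts of CYS1, SAMS3, MTK and RPI2. Fe-sufficient 1 was lowest for those of MTN and APT1, while for SAMS3, HMT2 and RPI2 it was the highest. The median SD of the brightest transcripts over the 6 arrays was 0.29 log2, beside 0.25 for all transcripts above background on every array.

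**Figure D4:**
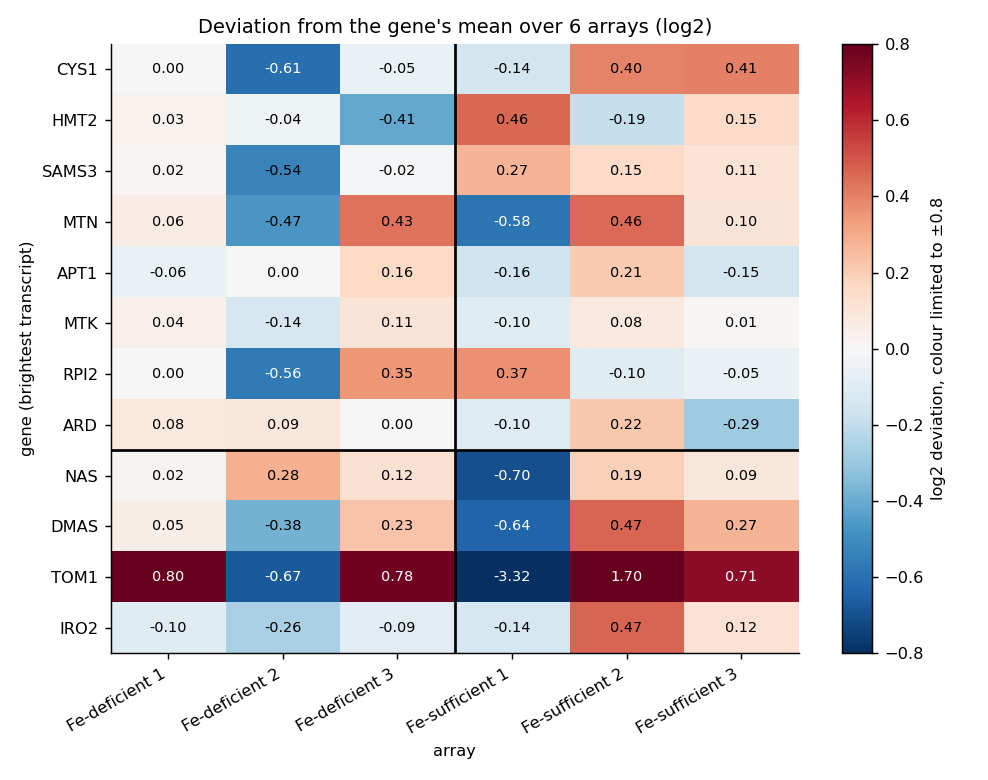
Deviation of each brightest transcript from its own mean over the 6 arrays, in log2 (cell values; colour limited to ±0.8), with arrays on the x axis, Fe-deficient first, members above the line and phytosiderophore genes below it. MTN deviates by -0.58 on Fe-sufficient 1 and by -0.47 on Fe-deficient 2, and DMAS and TOM1 are also low on both, while HMT2 and SAMS3 are high on Fe-sufficient 1.

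Relations between members were computed for 28 pairs of brightest transcripts over the 6 arrays, with exact permutation p-values over all 720 pairings, two-sided. None passed an adjusted p of 0.05. The exact test on 6 arrays left little room for that. A single relation on its own could pass only if no other pairing gave an r as large in size. The strongest was that of MTN with MTK, the enzymes of consecutive salvage steps (Pearson r = 0.963, exact permutation p = 0.0111, adjusted p = 0.175; Spearman rho = 0.829, exact permutation p = 0.0583). Without the 2 arrays farthest from the MTN median r was 0.886, and after removal of the group means it was 0.963. MTK ranged only 1.18-fold, however, against 2.05-fold for MTN. HMT2 and APT1 varied in opposite directions (r = -0.882, exact permutation p = 0.0125, adjusted p = 0.175; rho = -0.943, exact permutation p = 0.0167), with r = -0.985 without the 2 farthest arrays. CYS1 and SAMS3, which were both low on Fe-deficient 2, had r = 0.735 (exact permutation p = 0.106, adjusted p = 0.416; rho = 0.371, exact permutation p = 0.497). Their r was 0.0049 without the 2 farthest arrays and 0.0156 without Fe-deficient 2 alone, so this relation rests on that array.

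The circuit supplies the precursor of the phytosiderophores, and therefore the 8 members were also set against nicotianamine synthase (NAS), deoxymugineic acid synthase (DMAS), TOM1 and the regulator IRO2. Of these 32 relations 0 passed an adjusted p of 0.05, under the same limit of the exact test. The lowest p-values belonged to MTN. With DMAS its r was 0.957 (exact permutation p = 0.00694, adjusted p = 0.111; rho = 0.943, exact permutation p = 0.0167), 0.699 without the 2 farthest arrays and 0.962 after removal of the group means. With TOM1 its r was 0.881 (exact permutation p = 0.00556, adjusted p = 0.111; rho = 0.829, exact permutation p = 0.0583), 0.617 without the 2 farthest arrays and 0.893 after removal of the group means. Those arrays were Fe-sufficient 1 and Fe-deficient 2, the arrays on which MTN, DMAS and TOM1 were lowest. MTK had r = 0.872 with DMAS (exact permutation p = 0.0306, adjusted p = 0.311; rho = 0.657, exact permutation p = 0.175) and 0.293 without the 2 farthest arrays, so this relation rests on them. CYS1 had r = 0.846 with IRO2 (exact permutation p = 0.0389, adjusted p = 0.311; rho = 0.886, exact permutation p = 0.0333) and 0.98 without the 2 farthest arrays. IRO2 was dim, however, with log2 levels of 8.02 to 8.74. Those are close to the background limits of the arrays, which lay between 7.84 and 8.49. SAMS3 had a coefficient near 0 with TOM1 (r = -0.082, exact permutation p = 0.836, adjusted p = 0.923; rho = -0.0286, exact permutation p = 1), but that r was 0.931 without Fe-sufficient 1, -0.706 without Fe-deficient 2 and 0.677 without both, which are its 2 farthest arrays. The sign of that relation thus depended on single arrays. SAMS3 had r = -0.611 with NAS (exact permutation p = 0.193, adjusted p = 0.453; rho = -0.6, exact permutation p = 0.242). This r was -0.683 without Fe-sufficient 1 and -0.737 without Fe-deficient 2, and it turned to 0.571 without both.

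**Figure D5:**
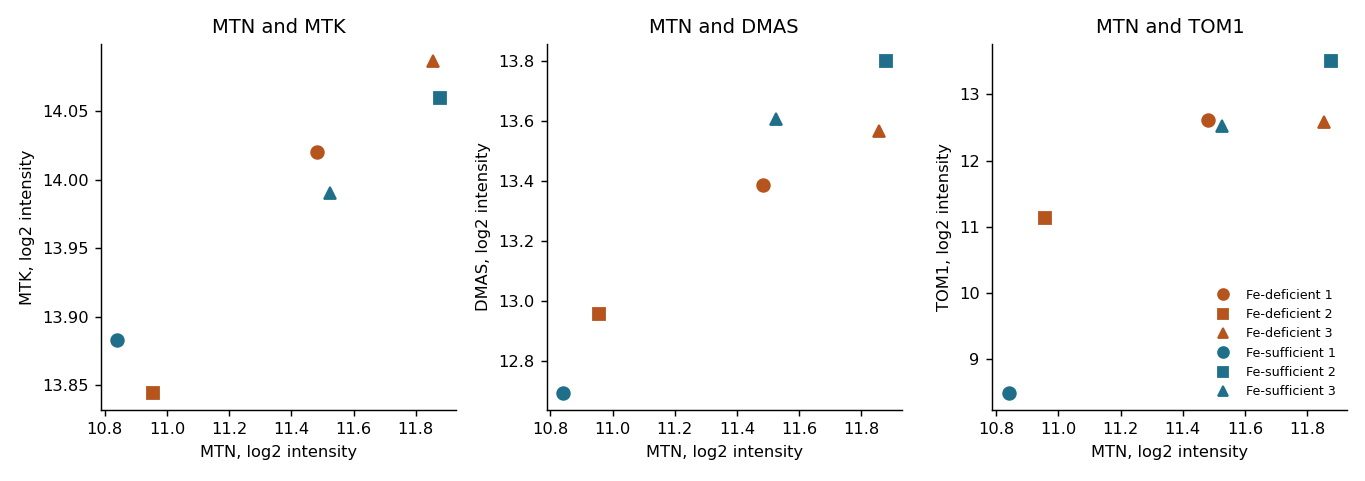
Log2 levels of MTK, DMAS and TOM1 (y axes) against that of MTN (x axes) on the 3 Fe-deficient arrays (orange) and the 3 Fe-sufficient arrays (blue), brightest transcripts. Fe-sufficient 1 and Fe-deficient 2 form the low end of each panel, and the other arrays of both groups are mixed at the high end.

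Genes around the members were not called either. The formate dehydrogenase genes, which act on the formate released by ARD, had log2 differences of -0.10 (GRMZM2G049811), 0.03 (GRMZM2G362021) and -0.03 (GRMZM2G418005) in their brightest transcripts, and GRMZM2G057506, which the study lists without a description, had 0.10. In limma all 4 had adjusted p-values of 0.852 or more. Among 14 further genes of methionine and sulfur amino acid synthesis taken by RefSeq symbol, 0 rose, 0 fell and 14 did not pass the test, with a median log2 difference of 0.01. The gene with the largest difference was a methionine S-methyltransferase gene, MMT1 (GRMZM2G098031), at 9.04, 8.33 and 8.54 in Fe-deficient roots against 8.55, 11.03 and 11.48 in Fe-sufficient roots, low on Fe-sufficient 1 as well and not called (limma adjusted p = 0.483). The symbol MMT1 also matches a far brighter gene, GRMZM2G098039, with group means of 14.73 and 14.86. Its difference was only -0.125 (limma adjusted p = 0.754). The second S-adenosylmethionine synthetase gene, sam2 (GRMZM2G154397), differed by 0.02 (limma adjusted p = 0.966), beside -0.36 for the brightest SAMS3 transcript; the difference between these was not tested. The symbol apt1 in this list matches 2 genes and may not mean the phosphoribosyltransferase.

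Of 6 genes that consume S-adenosylmethionine or its products for phytosiderophores and ethylene, 0 rose, 0 fell and 6 did not pass the test, with a median of 0.25. The nicotianamine synthase gene nas2 (GRMZM2G030036) had log2 levels of 12.72, 11.82 and 12.92 in Fe-deficient roots, against 8.90, 13.60 and 13.42 in Fe-sufficient roots. The nicotianamine aminotransferase gene naat1 (GRMZM2G096958) had 12.63, 12.45 and 12.45 in Fe-deficient roots, against 11.84, 12.84 and 12.65 in Fe-sufficient roots. Both were lowest on Fe-sufficient 1, as were DMAS and acs7. The other 2 genes were not: ACS6 (GRMZM2G054361), an ethylene synthesis gene with the largest difference of the list, had 10.73, 11.62 and 9.66 in Fe-deficient roots, against 9.84, 9.53 and 8.38 in Fe-sufficient roots (difference 1.42; limma adjusted p = 0.471), and acco20 was lowest on Fe-deficient 3.

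The transcripts of other genes most like each member were found by the highest Pearson r over the 6 arrays among those above background on every array. The best r lay between 0.986 for APT1 (with GRMZM2G173103) and 0.999 for CYS1 (with GRMZM2G113506). The others were GRMZM2G007453 for HMT2 at 0.994, GRMZM2G035285 for SAMS3 at 0.997, GRMZM2G300624 for MTN at 0.990, GRMZM2G136495 for MTK at 0.997, GRMZM2G462239 for RPI2 at 0.998 and GRMZM2G124791 for ARD at 0.996. With 6 arrays and so many candidates, high values are common. An r of at least 0.95 was reached by 0.0602% of the candidates for APT1, by 1.00% for CYS1 and by 1.36% for SAMS3.

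The count of calls was also taken with each array left out. Without Fe-sufficient 1 it was 1096 transcripts, or 1.83% of the array, and it held 0 of the 23 member transcripts, a number too small to set against that share. The lowest adjusted p of a member in that fit was 0.23 in limma, for the MTN transcript that was below background on every array, followed by CYS1 T02 and T03 at 0.235. In the other fits with an array left out, between 2 and 22 transcripts were called, and 0 of them were members.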

How the data were processed

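Root RNA was labelled with Cy3 and hybridised to 6 NimbleGen arrays of 59756 transcripts predicted from the B73 genome. The deposited files hold a linear intensity per probe, which the authors had quantile-normalized (median 549.97 to 550.03 on every array). NimbleScan and RMA are named for image analysis and summarization, and a background subtraction was not given in the sources used here. In the deposited value table the same values were found (largest difference 0). Intensities were taken to log2, summarised per transcript by median polish, and compared by limma 3.58.1 (lmFit, then eBayes) under R 4.3.3. No covariate was fitted. The Benjamini-Hochberg adjustment covered all 59756 transcripts, and the limits of an adjusted p of 0.05 and a fold of 1.5 are those of the study. The brightest transcript of a gene is the one with the highest mean. The fit was tested on simulated data.

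The members and lists were chosen with earlier results of these data known. Named were every member transcript, the neighbouring genes tabulated by the study, and the most similar transcript per member. Gene names follow the study, with RefSeq (another build) used for names only, of which all 8 members matched. The number of arrays limits the precision, and only 3 replicates per group were available. As alternatives, cyclic loess, scaling to the median, array weights, an RMA-type background, normexp (offset 50), means of probes, removal of dim transcripts, 1 transcript per gene, other thresholds, a block for the replicate number and leaving out each array were tried. Figures were drawn with matplotlib 3.10.9.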

Additional observations from a re-analysis of the deposited data

How the results depend on the processing

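No member transcript was called under any alternative that kept the threshold, and 1 (SAMS3 T02) passed an unadjusted limma p of at most 0.05 with the minimum fold. The median log2 difference of the 8 members stayed between -0.17 and -0.06, except for 0.08 without Fe-deficient 2. Over the whole array 51 transcripts were called in the main setting, 28 with the RMA-type background, 165 with array weights and 30 with 1 transcript per gene. At an unadjusted p with the minimum fold 3190 of 59756 passed, beside the 1 of 23 member transcripts. With an array left out between 2 and 1096 were called, the highest without Fe-sufficient 1. Of 120 values of the brightest transcripts under 15 alternatives, 109 kept their sign and 11 did not. Part of this count was fixed in advance. Means of probes, removal of dim transcripts, 1 transcript per gene and the replicate block cannot change these differences. Scaling to the median could hardly do so, since the arrays already had nearly equal medians. With array weights the log2 difference was -0.107 for MTN, -0.036 for APT1 and 0.026 for RPI2. With an array left out it lay between -0.27 and 0.26 for MTN, -0.046 and 0.076 for MTK, and -0.36 and 0.10 for RPI2. CYS1, HMT2 and SAMS3 lay below 0 and ARD above 0 under all 15, although HMT2 was -0.086 with array weights and ARD 0.002 without Fe-sufficient 3. The cause was not tested.

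Arrays that carry the same replicate number showed no shared shift (correlations of -0.12, -0.01 and 0.07). Pairs with unlike numbers were not compared, so whether a number stands for 1 cultivation in both groups cannot be told from these values. With the replicate block 0 transcripts of the array and 0 members were called.

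The correlations were repeated under the other normalizations and the mean of probes, a choice made after seeing the data, and 0 of 28 and 0 of 32 relations passed an adjusted p of 0.05. The limit of the exact test applied there too, so these counts say little.

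With 3 arrays per group, what could be detected differed by gene: the 95% interval was -1.0 to 0.12 for CYS1 and -0.76 to 0.79 for MTN, against -0.32 to 0.33 for MTK. Dim transcripts (MTN T01, ARD T01, HMT2 T03) carry little signal over background.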
